A study of Rattus norvegicus with 15 samples.

Results

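The vacuolar proton pump and the cathepsins were followed through rat bone as 37 genes of the 22468 in the expression table. They are all genes whose symbol begins with Atp6v0, Atp6v1 or Atp6ap, and all cathepsins with a single closing letter except Ctsk, the osteoclast collagenase, and Ctsg, a neutrophil serine protease. The symbols give 26 pump genes, of which 9 encode parts of the membrane sector V0, 13 parts of the sector V1 and 4 are accessory or neighbouring genes, and 11 cathepsins. Bulk poly(A) RNA sequencing covered 15 bone libraries of female Sprague-Dawley rats, 3 in each of 5 groups. SYT, YJT and YJZYT are ovariectomized rats that the labels separate by these names alone. Model rats were ovariectomized and are labelled with osteoporosis. Blank rats had no treatment. The study is about a Chinese herbal preparation, Zhuanggu Zhitong Capsule, which no label ties to a group, so how SYT, YJT and YJZYT differ from Model is not known beyond their names. Nothing in the labels says whether the 3 libraries of a group came from separate rats. A p-value here is set against the spread between libraries alone, and that spread may be technical.

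The pump, or V-ATPase, uses ATP to move protons across membranes. Its V1 sector hydrolyses ATP in the cytosol and its V0 sector passes protons through the membrane. In most cells it acidifies lysosomes, where cathepsins digest protein. In bone the osteoclast also places it in the ruffled border that faces the bone surface, where acid dissolves mineral. Several subunits exist as alternative isoforms. The d2 subunit, Atp6v0d2, is enriched in osteoclasts and in mice takes part in the fusion of their precursors, while the d1 subunit, Atp6v0d1, is found in most cells. The osteoclast's own a subunit, a3, is encoded by Tcirg1, whose symbol keeps it outside the 37 genes.

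Lysosomal genes are known to share a promoter element around CACGTG, which is read by the transcription factors TFEB, TFE3 and MITF. RefSeq promoters of the rat assembly GRCr8, taken as the 250 bases before the gene start, were held for 29 of the 37 genes. No promoter was matched for Atp6v1fnb, Ctsw, Atp6v1c1, Atp6v1b2, Atp6v1h, Atp6v0d2, Atp6v0e2 and Ctsb. CACGTG, which reads the same on both strands, occurred in 3 of the 29 (10.3%), those of Atp6v0d1, Ctsd and Ctsf, against 5.59% of 33469 RefSeq promoters. Its extension TCACGTGA, which contains it, occurred in 2 of the 29 (6.90%), those of Atp6v0d1 and Ctsd, against 0.657% of all. The same letters with a G before and a C after, the full palindrome, occurred in 0 of the 29 and in 0.203% of all. The motif was settled on after the sequences had been seen, and a match describes letters and not a used site. The 4 promoters below belong to the genes with the least variable levels, Atp6v0d1 and Ctsd, and to Ctsf and Ctsl, which moved with osteoclast markers as given further on. Capitals mark CACGTG.
Atp6v0d1, chr19:50357249-50357498, minus strand: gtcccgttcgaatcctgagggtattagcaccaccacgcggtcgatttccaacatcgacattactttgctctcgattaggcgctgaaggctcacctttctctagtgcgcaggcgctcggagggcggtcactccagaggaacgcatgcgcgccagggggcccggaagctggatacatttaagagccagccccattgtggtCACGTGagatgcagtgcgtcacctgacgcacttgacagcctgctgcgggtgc
Ctsd, chr1:206968822-206969071, minus strand: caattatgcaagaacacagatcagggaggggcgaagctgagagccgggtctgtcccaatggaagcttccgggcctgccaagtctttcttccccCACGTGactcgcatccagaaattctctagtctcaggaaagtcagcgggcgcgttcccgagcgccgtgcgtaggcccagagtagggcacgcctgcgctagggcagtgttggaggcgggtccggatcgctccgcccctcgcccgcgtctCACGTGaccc
Ctsf, chr1:211581919-211582168, plus strand: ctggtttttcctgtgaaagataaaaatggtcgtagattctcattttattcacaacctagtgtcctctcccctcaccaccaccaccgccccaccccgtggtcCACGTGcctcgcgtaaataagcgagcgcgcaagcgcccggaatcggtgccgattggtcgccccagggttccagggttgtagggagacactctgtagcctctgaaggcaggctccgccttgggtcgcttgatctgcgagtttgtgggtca
Ctsl, chr17:769854-770103, plus strand: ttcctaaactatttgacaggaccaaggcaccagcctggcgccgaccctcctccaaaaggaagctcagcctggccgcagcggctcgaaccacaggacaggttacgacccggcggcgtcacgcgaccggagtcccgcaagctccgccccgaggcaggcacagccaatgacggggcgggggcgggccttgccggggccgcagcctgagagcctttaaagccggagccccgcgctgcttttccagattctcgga
The Ctsd promoter held CACGTG at 2 places, beginning 157 and 10 bases before the gene start. In Atp6v0d1 it began 52 bases before the start and in Ctsf 149 bases before it. The Ctsl window held none. Promoters were matched to genes by symbol only. In the deposited data Ctsl lies on the minus strand of chromosome 17, while the promoter above lies on the plus strand of GRCr8.

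Library totals ran from 64472700 to 74255667 counts. YJT3 and YJZYT3 (replicate 3 of each group) stood apart from the other libraries in bone cell markers. An osteoclast score, the median deviation of 8 marker genes on the log2 CPM scale (CPM being counts relative to the TMM-scaled library size), was -2.25 in YJT3 and -1.87 in YJZYT3, against -1.04 to 1.33 in the other 13 libraries. An osteoblast score of 9 genes was -2.27 in YJT3 and -1.46 in YJZYT3, against -0.49 to 1.65 in the others. Main values of the YJT and YJZYT comparisons and of the slopes are also given without these 2 libraries. Skeletal muscle markers (6 genes) also differed between groups. Their summed FPKM (a level corrected for gene length) was 232 to 1625 in SYT, 1314 to 1443 in YJT, 20.1 to 361 in YJZYT, 142 to 370.2 in Model and 2142 to 3328 in Blank. Their part in the results was not tested.

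Levels are given first, in FPKM, which corrects for gene length. A mean of 1 FPKM or more over the 15 libraries was reached by 30 of the 37 genes, and 8 of them reached 100 FPKM. In the V0 sector the proton-carrying c subunit Atp6v0c was highest, with a mean of 272 FPKM and a range of 199.99 in YJZYT3 to 339.9 in SYT3. Its relative Atp6v0b averaged 130.0 FPKM and the small e subunit Atp6v0e1 averaged 44.0 FPKM. In the V1 sector the ATP-hydrolysing A subunit Atp6v1a averaged 46.5 FPKM and its partner, the B2 subunit Atp6v1b2, 91.4 FPKM. The stalk subunit Atp6v1g1 was the highest V1 gene at 189 FPKM. The accessory genes Atp6ap1 and Atp6ap2 averaged 61.1 and 80.1 FPKM, and Atp6ap2 is also known as the prorenin receptor.

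Among the cathepsins, the cysteine protease Ctsb was highest at a mean of 357 FPKM, with 250.01 FPKM in Model2 as its lowest value and 508 in SYT2 as its highest. Ctsz, a carboxypeptidase, averaged 216 FPKM, Ctsh, an aminopeptidase, 167 FPKM, and Ctsd, the main aspartic protease of lysosomes, 158 FPKM. The serine carboxypeptidase Ctsa averaged 114 FPKM. Ctsl averaged 63.9 FPKM and Ctss, a protease of antigen-presenting cells, 44.3 FPKM. The aspartic protease Ctse averaged 51.2 FPKM. Ctsc, which activates the serine proteases of neutrophil and lymphocyte granules, averaged 26.7 FPKM. Ctsw, a protease of cytotoxic lymphocytes, was the lowest cathepsin at 4.06 FPKM. For scale, the excluded Ctsk averaged 1245 FPKM.

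The 7 genes under 1 FPKM were Atp6v0a4, Atp6v1b1, Atp6v1c2, Atp6v1e2, Atp6v1fnb, Atp6v1g2 and Atp6v1g3. Several of these encode isoforms known from acid-secreting epithelia, testis or brain, such as Atp6v1b1 and Atp6v0a4 of the kidney. Atp6v1b1 was listed at 0 in 12 libraries and had at most 15 counts, in YJZYT1, and was the only member removed by the filter on low counts. The other 36 were among the 17657 genes tested. Of the 7, Atp6v1fnb is named for lying next to Atp6v1f and is not known as a pump subunit. Atp6v1g2 overlaps class I histocompatibility genes in the table, and Ctsa overlaps the oppositely oriented Pltp, which averaged 33.5 FPKM. No source used here gives the strand setting of the counting, so reads of such neighbours cannot be told apart.

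Most subunits with alternative isoforms were carried almost entirely by 1 of them. Atp6v1b2 made up at least 99.96% of the summed FPKM of the B isoforms in every library. Median shares were 99.8% for Atp6v1e1 among E isoforms, 99.6% for Atp6v1g1 among G and 98.7% for Atp6v1c1 among C. Atp6v0e1 made up 87.5% of e, with a range of 83.2% in Blank1 to 93.1% in YJZYT3. Mixed use was found for the a and d subunits. Tcirg1 held a median of 60.8% of the a isoforms, from 42.7% in YJZYT3 to 76.9% in Model2. The a1 isoform Atp6v0a1 held a median of 32.6%, from 17.7% in Model2 to 52.2% in YJZYT3. Atp6v0a2 held a median of 5.87%. Atp6v0d2 held a median of 42.1% of the d isoforms, from 8.12% in YJT3 to 60.8% in SYT3, which is the widest range of these shares.

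The d isoforms differed in how much they varied. Atp6v0d2 (ENSRNOG00000006926, chromosome 5, 33843519 to 33892462, minus strand, of a build that no source used here names) had 17.3, 31.7 and 56.1 FPKM in SYT, 27.6, 10.4 and 4.002 FPKM in YJT, 43.1, 35.9 and 6.53 FPKM in YJZYT, 32.4, 41.6 and 47.4 FPKM in Model and 14.3, 47.1 and 31.2 FPKM in Blank. YJT3 and YJZYT3 were lowest, and all groups but the pair of YJT and Model overlapped. Atp6v0d1 (ENSRNOG00000017235, chromosome 19, 37481782 to 37525762, minus strand) had 36.9, 37.4 and 36.2 FPKM in SYT, 40.3, 35.8 and 45.3 FPKM in YJT, 42.6, 38.0 and 37.1 FPKM in YJZYT, 45.3, 37.1 and 44.6 FPKM in Model and 40.5, 39.5 and 42.9 FPKM in Blank. Its highest value was 1.26 times its lowest, against 14.0 times for Atp6v0d2. On the log2 CPM scale the SD over all 15 libraries was 1.12 for Atp6v0d2 and 0.0846 for Atp6v0d1. These stand at percentile 84.0 and percentile 0.108 of the SDs of all genes tested.

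**Figure D1:**
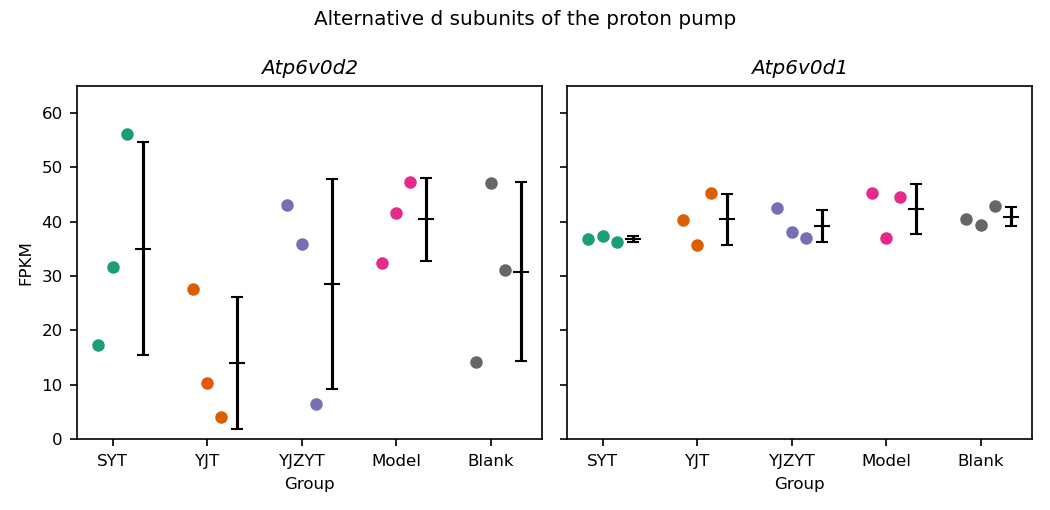
FPKM of Atp6v0d2 (left) and Atp6v0d1 (right) in each of the 15 libraries, by group, with the group mean and SD as a bar beside the points (n = 3). Atp6v0d2 runs from 4.002 to 56.1 FPKM, while Atp6v0d1 stays between 35.8 and 45.3 FPKM.

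Most other members varied less than Atp6v0d2 and more than Atp6v0d1. The median SD of log2 CPM was 0.31 over the 30 members at 1 FPKM or more, against 0.45 over all genes tested and 0.29 over the 5732 tested genes with a mean of at least 10 FPKM. Ctsd was nearly as steady as Atp6v0d1, with an SD of 0.121 at percentile 1.11. Ctsl was the most variable cathepsin, with an SD of 0.71. Its FPKM values were 41.1, 68.6 and 117 in SYT, 63.5, 33.7 and 22.2 in YJT, 55.0, 63.7 and 19.5 in YJZYT, 69.8, 75.6 and 77.6 in Model and 73.8, 91.4 and 86.0 in Blank. SYT3 was highest and YJZYT3 and YJT3 lowest, the same libraries as at the ends of Atp6v0d2. Ctse ran the other way in these libraries, with 24.1 FPKM in SYT3, 74.3 in YJT3 and 74.7 in YJZYT3, its lowest value and its 2 highest.

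Atp6ap1l, a relative of Atp6ap1, was the most variable member with an SD of 1.801. It had 7.69, 5.33 and 1.76 FPKM in SYT, 4.02, 6.29 and 0.0733 FPKM in YJT, 4.53, 13.1 and 15.2 FPKM in YJZYT, 5.63, 2.09 and 3.37 FPKM in Model and 14.1, 9.99 and 4.71 FPKM in Blank. The value in YJT3 rests on 7 counts, against 1280 counts in YJZYT3. These 2 libraries, alike in Atp6v0d2 and Ctsl, were thus at opposite ends for Atp6ap1l.

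**Figure D2:**
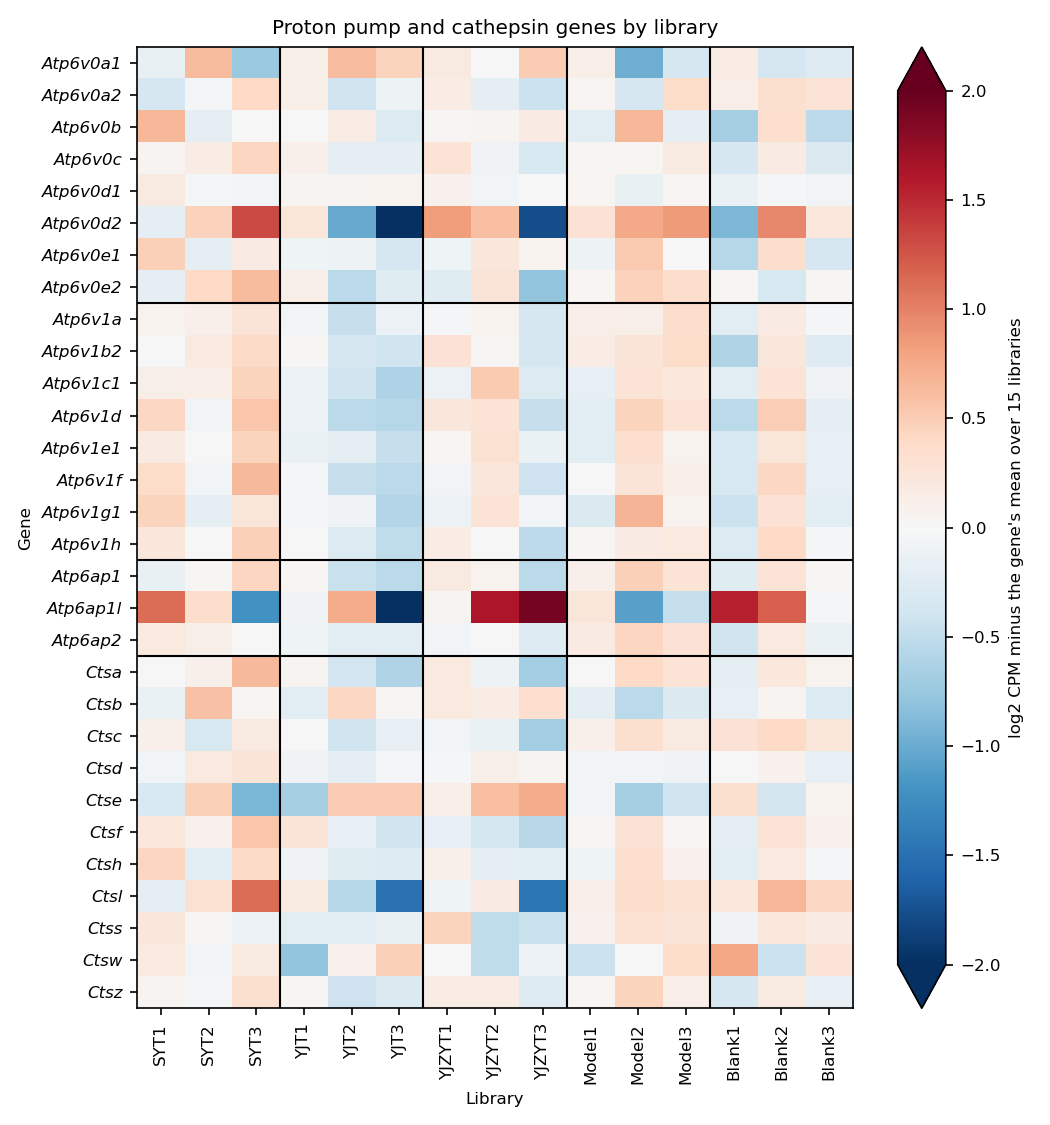
Log2 CPM of the 30 members at a mean of 1 FPKM or more (rows, by sector and family) in the 15 libraries (columns, by group), as the deviation from the gene's mean, with colours ending at -2 and 2. Atp6v0d2 and Ctsl are lowest in YJT3 and YJZYT3, Atp6v0d1 and Ctsd are near 0 throughout, and Atp6ap1l is lowest in YJT3 and highest in YJZYT3.

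Between groups, no member passed the threshold of an adjusted p of 0.05 in any of the 4 contrasts or in the test for any difference among the 5 groups (edgeR's quasi-likelihood test with Benjamini-Hochberg adjustment over all genes tested). The share of all tested genes called was 0.0227% for Model against Blank, 0.0% for each of SYT, YJT and YJZYT against Model, and 0.0227% for any difference. DESeq2 and limma also called 0 members in each. An unadjusted p under 0.05 was reached by 2 of 36 members for SYT (5.56%, against 3.16% of all genes tested), 5 for YJT (13.9%, against 6.58%), 5 for YJZYT (13.9%, against 7.29%) and 1 for Model against Blank (2.78%, against 8.19%). When 1 library was left out these counts ran from 0 to 2 for SYT, from 1 (without YJT2) to 17 (without YJT1) for YJT, from 0 (without YJZYT3 or Model2) to 7 (without YJZYT1) for YJZYT and from 0 (without Blank1, Blank3 or Model2) to 5 (without Blank2) for Model against Blank. Without YJT3 and YJZYT3 they were 3 for YJT and 0 for YJZYT. No share of all genes is given for the fits with libraries left out. Their counts are therefore not read as a result about the members. The 3 comparisons with Model share its libraries.

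In SYT against Model the smallest p belonged to Atp6v1fnb, at near-zero counts (unadjusted p = 0.0298), and the next to Ctsb. Ctsb had 715, 1176 and 807 CPM in SYT, against 695, 544 and 641 CPM in Model. All SYT libraries were above all Model libraries, and the log2 fold change was 0.52 (SE 0.23, unadjusted p = 0.0373, adjusted p = 1.0). The value was 0.28 without SYT2, 0.29 with library totals alone and 0.25 by limma. With TMM scaling Ctsb was the only member with separate groups in the upward direction, against 3.22% of genes tested, and Atp6v1fnb the only member lower (2.69% of genes tested, 5.91% for either direction). With library totals alone 0 members were separate and higher, against 0.934% of genes tested. Separate and lower were 6 members (16.7%, against 12.8% of genes tested), namely Atp6ap2, Atp6v0d1, Atp6v1a, Atp6v1fnb, Ctsc and Ctss. Atp6v0a4 followed with a log2 value of 0.66 (SE 0.58) and Ctsd with 0.19 (SE 0.14), although Ctsd had -0.04 with library totals alone as scaling. On the lower side Atp6v1fnb stood at -3.42 (SE 1.40), Atp6v1g3 at -0.63 (SE 0.54) and Atp6ap2 at -0.19 (SE 0.16). Among these, Atp6v0a4 was 1.32 without Model3 and 0.41 without Model1, Atp6v1g3 was 0.0757 without Model2 and -0.96 without SYT1, and Atp6ap2 was -0.44 with library totals alone and -0.12 without Model2. The adjusted p was 1.0 for all 36 members. The median log2 fold change of the members was 0.10, against 0.02 for all genes tested. Library totals alone moved both medians, to -0.15 and -0.22, so the members lay above the median gene under either scaling. The members' median was 0.01 without SYT3, 0.04 without Model1, 0.16 without SYT2 and 0.17 without Model3.

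In YJT against Model most members had lower estimates, with 26 below 0 and 10 above, and a median log2 fold change of -0.36 against -0.02 for all genes tested. Atp6ap2 had the smallest p. It had 187, 171 and 169 CPM in YJT, against 222, 266 and 242 CPM in Model, with no overlap and a log2 fold change of -0.47 (SE 0.16, unadjusted p = 0.0120, adjusted p = 0.746). Atp6ap1, with 155, 111 and 104 CPM in YJT against 162, 210 and 182 CPM in Model, had -0.58 (SE 0.23, unadjusted p = 0.0275, adjusted p = 0.746). For Atp6v1a the values were 216, 162 and 207 CPM in YJT against 246, 243 and 284 CPM in Model, with a log2 fold change of -0.40 (SE 0.17, unadjusted p = 0.0311). All 3 genes had every YJT library below every Model library.

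In the other direction, Atp6v0a1 had 77.6, 110 and 97.7 CPM in YJT, against 78.4, 36.1 and 56.7 CPM in Model, and a log2 fold change of 0.74 (SE 0.33, unadjusted p = 0.0449, adjusted p = 0.757). The groups overlapped because YJT1 lay just under Model1. Atp6v0a4 stood at 1.16 (SE 0.58) at under 1 FPKM, and Ctsb at 0.43 (SE 0.23). Atp6v0a4 was 1.82 without Model3, and Ctsb was 0.24 without YJT2, 0.27 with library totals alone and 0.26 by limma. Atp6v0d2 had the largest negative estimate of the members at 1 FPKM or more, -1.36 (SE 0.73, unadjusted p = 0.0854, adjusted p = 0.775), and -0.90 (SE 0.55) without YJT3 and YJZYT3.

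Every YJT library lay below every Model library in CPM for 10 of the 36 members (27.8%), against 4.93% of all genes tested. These were Atp6ap1, Atp6ap2, Atp6v0d2, Atp6v1a, Atp6v1b2, Atp6v1f, Atp6v1h, Ctsc, Ctss and Ctsz. Atp6v0d1 and Atp6v1e2 lay above (6.84% of all genes tested). With library totals alone the lower ones numbered 19 (52.8%, against 1767 of the 17657 genes), and without YJT3 and YJZYT3 they numbered 11 (30.6%, against 9.46%), a comparison of 2 libraries with 3. The median of all genes moved to -0.16 with library totals alone, and that of the members to -0.50. Without YJT3 the members' median was -0.28, and without Model2 it was -0.19.

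Markers of other cells and pathways were set beside the members in this contrast, and no gene of these lists passed the threshold. The median log2 fold change was -1.23 over the 8 osteoclast score genes, -0.92 over 9 osteoblast genes, -0.78 over 8 macrophage genes, -0.48 over 11 other genes of osteoclast acid secretion and resorption and -0.28 over 31 other lysosome genes. B cell markers had a median of -0.83 and T and NK cell markers of -0.28. Medians were above 0 for skeletal muscle (2.50), erythroid (0.97), adipocyte (0.84), megakaryocyte (0.37) and neutrophil markers (0.14). As differences of mean log2 CPM, the osteoclast median was -1.52 and the osteoblast median -1.30, against -0.81 and -0.42 without YJT3. The part of these cells in the members' values was not tested. In bulk bone, fewer cells of a type and less RNA per cell cannot be told apart.

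In YJZYT against Model, 28 members had estimates below 0 and 8 above, with a median of -0.20 against -0.07 for all genes tested (-0.34 against -0.22 with library totals alone). Cathepsins made up 4 of the 5 members with an unadjusted p under 0.05, and they split in direction. Ctsb had 902, 871 and 994 CPM in YJZYT, against 695, 544 and 641 CPM in Model, and a log2 fold change of 0.56 (SE 0.23, unadjusted p = 0.0278, adjusted p = 0.638). Ctse had 135, 186 and 205 CPM in YJZYT, against 118, 77.6 and 92.8 CPM in Model, and a value of 0.87 (SE 0.37, unadjusted p = 0.0350, adjusted p = 0.649). Both were higher in every YJZYT library than in any Model library. Without YJT3 and YJZYT3 the values were 0.50 (SE 0.27) for Ctsb and 0.74 (SE 0.42) for Ctse.

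Ctsc went lower, with 53.7, 50.8 and 34.3 CPM in YJZYT against 59.7, 69.9 and 62.9 CPM in Model, and a log2 fold change of -0.47 (SE 0.18, unadjusted p = 0.0228, adjusted p = 0.638). Ctsf, with 53.5, 47.2 and 40.7 CPM in YJZYT against 61.4, 73.4 and 61.2 CPM in Model, also had -0.47 (SE 0.20, unadjusted p = 0.0310, adjusted p = 0.645). The fifth was Atp6ap2, at 192, 198 and 166 CPM in YJZYT against 222, 266 and 242 CPM in Model, with -0.39 (SE 0.16, unadjusted p = 0.0299, adjusted p = 0.641). None of these 3 overlapped between groups. Without YJT3 and YJZYT3 the values were -0.30 (SE 0.18) for Ctsc, -0.38 (SE 0.21) for Ctsf and -0.32 (SE 0.20) for Atp6ap2. Atp6ap1l had 1.73 with an SE of 1.01. With TMM scaling, separate groups were found for 4 members in each direction, or 22.2% of the 36, against 13.0% of all genes tested (7.39% higher and 5.57% lower). With library totals alone 3 were higher (against 4.13% of genes tested) and 8 lower (22.2%, against 11.2% of genes tested). The members' median was -0.09 without YJZYT3, -0.13 without Model2 and -0.32 without YJZYT1. Without both YJT3 and YJZYT3 it was -0.09, close to the -0.06 of all genes tested. Erythroid markers had a median of 1.40, with all 6 above 0, skeletal muscle markers of -0.62 and osteoclast score genes of -0.46. Of 31 other lysosome genes, 30 had estimates below 0, with a median of -0.28, against 10169 of the 17657 genes tested below 0. Osteoblast markers had a median of -0.58 and macrophage score genes of -0.39. As differences of mean log2 CPM, the erythroid median was 1.502 and the osteoclast median -0.84, against 1.32 and 0.00534 without YJZYT3. On the same scale the other lysosome median was -0.31 (-0.13 without YJZYT3) and the osteoblast median -0.85 (-0.26). The macrophage median was -0.54 (-0.06) and the skeletal muscle median -1.41 (-1.69). No gene of these lists passed the threshold, and their part in the members' values was not tested.

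In Model against Blank the smallest p belonged to Atp6ap2. It had 222, 266 and 242 CPM in Model, against 149.5, 226 and 180 CPM in Blank, with a log2 fold change of 0.40 (SE 0.16, unadjusted p = 0.0284, adjusted p = 0.526). Model1 lay below Blank2, so the groups overlapped in TMM-scaled CPM, though not with library totals alone. Atp6v1b2 stood at 0.43 (SE 0.23) and Ctsz at 0.31 (SE 0.20). On the lower side were Atp6ap1l at -1.39 (SE 0.998), Atp6v0a4 at -0.76 (SE 0.58) and Ctse at -0.39 (SE 0.37). Without Blank1 the value was 0.21 for Atp6ap2, 0.20 for Atp6v1b2 and 0.15 for Ctsz, and without Blank2 it was 0.68 for Atp6v1b2 and 0.48 for Ctsz. Without Model2 Ctsz was 0.18 and Ctse -0.26, without Model1 Ctse was -0.62, and without Model3 Atp6v0a4 was -1.42. With TMM scaling only Atp6v0e2 had separate groups, higher in Model, or 2.78% of members against 15.6% of all genes tested in either direction (7.58% higher and 8.06% lower). With library totals alone Atp6ap2, Atp6v1a and Atp6v1b2 were separate and higher and Ctsc separate and lower, and Atp6v0e2 overlapped. Of all genes tested, 8.53% were separate and higher under this scaling and 7.05% separate and lower (2.78% of members lower). The pump genes had a median of 0.20 and the cathepsins of -0.03, with 0.02 for all genes tested. The median over all members, 0.12, was -0.03 without Blank1, 0.28 without Blank2, 0.07 without Blank3 and 0.04 without Model2.

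**Figure D3:**
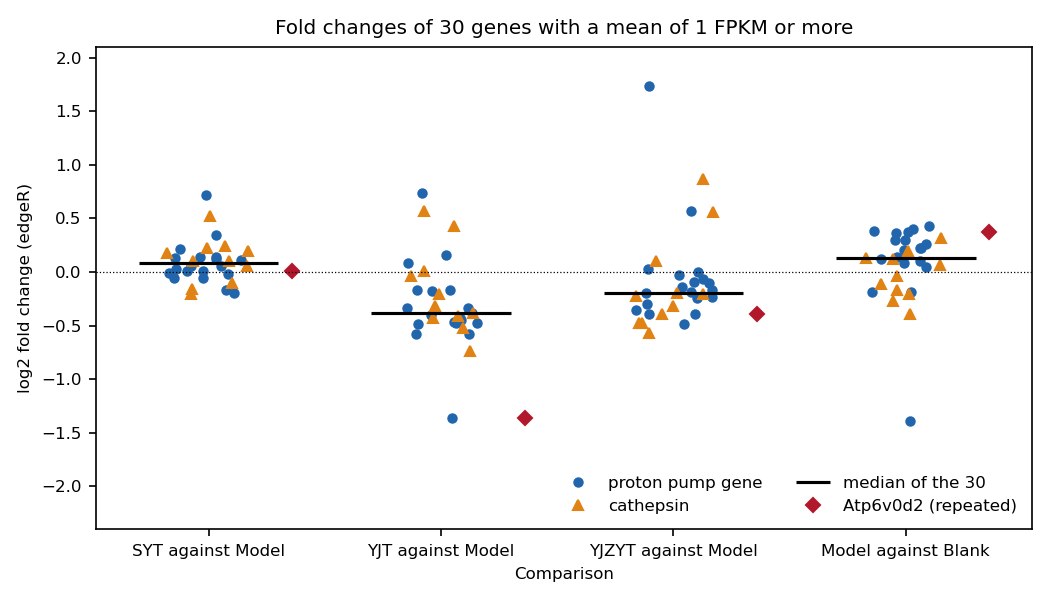
edgeR log2 fold changes of the 30 members at a mean of 1 FPKM or more in each contrast, with pump genes as circles, cathepsins as triangles, their median as a bar and Atp6v0d2 repeated as a diamond. None passed an adjusted p of 0.05. Most points lie below 0 for YJT and YJZYT against Model.

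In the test for any difference among the 5 groups the smallest p belonged to Ctsc (unadjusted p = 0.0335, adjusted p = 0.618 by edgeR), followed by Ctsf, Atp6ap2, Atp6v0a4 and Ctsb. Ctsc averaged 23.4 ± 3.85 FPKM in SYT, 22.3 ± 4.60 in YJT, 21.1 ± 5.52 in YJZYT, 31.9 ± 1.33 in Model and 34.6 ± 0.399 in Blank (SD, n = 3 each). These FPKM values lack the TMM scaling that the test used. In TMM-scaled CPM, SYT averaged 55.8 and Model 64.2, a log2 fold change of -0.20 (SE 0.18). Among all genes tested 7.71% had an unadjusted p under 0.05, against 2.78% of the members, which is Ctsc alone.

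The balance of the d isoforms was tested as the log2 ratio of Atp6v0d2 to Atp6v0d1 FPKM. It averaged -0.23 ± 0.86 in SYT, -1.94 ± 1.48 in YJT, -0.86 ± 1.43 in YJZYT, -0.08 ± 0.36 in Model and -0.57 ± 0.88 in Blank (SD, n = 3 each). YJT lay below Model by 1.87 with no overlap, and the exact two-sided permutation p was 0.1, the smallest that 3 against 3 libraries allow (0.4 adjusted over the 4 contrasts). The gap was narrow, as YJT1 at -0.55 lay just under Model1 at -0.48. The other differences were -0.16 for SYT against Model (exact permutation p = 0.8), -0.78 for YJZYT against Model (exact permutation p = 0.5) and 0.49 for Model against Blank (exact permutation p = 0.7). Single libraries set several of these values. SYT against Model was 0.27 without SYT1, -0.59 without SYT3, -0.36 without Model1, -0.03 without Model2 and -0.07 without Model3. YJZYT against Model was 0.04 without YJZYT3, -1.22 without YJZYT1 and -1.17 without YJZYT2. YJT against Model was -1.09 without YJT3. Model against Blank was 0.03 without Blank1 and 0.91 without Blank2.

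Across libraries the same ratio moved with the osteoclast score, whose genes are Acp5, Calcr, Ctsk, Dcstamp, Ocstamp, Oscar, Siglec15 and Slc9b2 and include no member. Pearson's r was 0.983 (permutation p = 1e-05, the smallest that 100000 permutations can give) and Spearman's rho 0.918 (permutation p = 2e-05) over the 15 libraries. Without YJT3 and YJZYT3, the 2 libraries farthest from the median score, r was 0.961 and rho 0.874 over 13 libraries (permutation p = 2e-05 and 0.00021). After group means were removed r was 0.982 (exact permutation within groups, p = 0.000386). The ratio thus rose with the osteoclast score across libraries and, with the groups pooled, within them. The order did not hold in every group. Model3 had a higher score than Model2 (0.97 against 0.38) and a lower ratio (0.087 against 0.17). The ratio was not set against the osteoblast score, which correlated with the osteoclast score at r = 0.959.

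**Figure D4:**
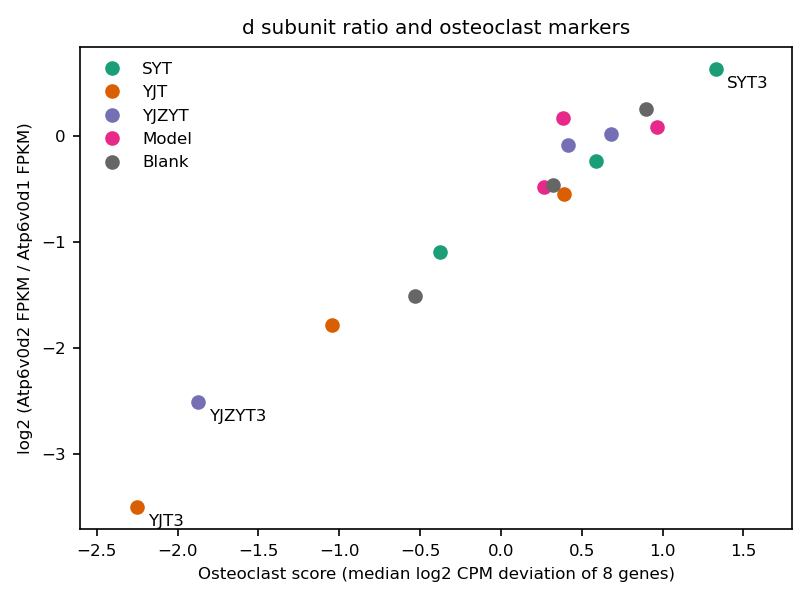
Log2 ratio of Atp6v0d2 to Atp6v0d1 FPKM (y) against the osteoclast score (x, log2 units) in 15 libraries, coloured by group. The points run from YJT3 at a ratio of -3.50 to SYT3 at 0.63.

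Each member was then fitted with a slope on the osteoclast score beside the group means, which asks whether it moved with osteoclast markers between libraries of the same group. By edgeR's quasi-likelihood test, 8 of 36 members passed the threshold, all with positive slopes (22.2%). Of all genes tested outside the score 13.7% passed, 10.9% with positive and 2.76% with negative slopes. An unadjusted p under 0.05 was reached by 17 members (47.2%, against 26.6%). Atp6v0d2 had the steepest slope of the members at 1 FPKM or more, 1.04 log2 units per unit of score (SE 0.07, adjusted p = 5.36e-06). It ranked at place 6 of the 17649 genes outside the score by p. For comparison, the score gene Ctsk had 0.95 and Acp5, the tartrate-resistant acid phosphatase, 1.12. Ctsl followed with 0.59 (SE 0.07, adjusted p = 8.06e-05).

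The other 6 had slopes from 0.18 to 0.29. They were Ctsa at 0.29 (SE 0.06, adjusted p = 0.00407), Atp6ap1 at 0.27 (SE 0.05, adjusted p = 0.0038), the B2 subunit Atp6v1b2 at 0.23 (adjusted p = 0.0174), the V1 regulatory subunit Atp6v1h at 0.23 (adjusted p = 0.0123), Ctsf at 0.19 (adjusted p = 0.0302) and Atp6v0c at 0.18 (adjusted p = 0.0466). Tcirg1, outside the 37, had 0.28 (adjusted p = 0.00596), close to Atp6ap1 and far below Atp6v0d2. Atp6v0d1 had -0.01 (SE 0.04), Ctsd 0.02 (SE 0.05), Ctsb -0.03 (SE 0.09), Ctss 0.07 (SE 0.08) and Ctsh 0.07 (SE 0.07), none past the threshold. Atp6v1a (0.11), Atp6ap2 (0.08), Atp6v1c1 (0.21, adjusted p = 0.0551), Ctsz (0.16) and Ctsc (0.12) did not pass either. The most negative slopes among members at 1 FPKM or more were -0.31 for Ctse (SE 0.12, adjusted p = 0.122), -0.25 for Atp6ap1l, -0.23 for Ctsw and -0.19 for Atp6v0a1. None of these passed, and some signs depended on the fit. Atp6ap1l had 1.44 (unadjusted p = 0.0272) with the macrophage score in the same model, and Atp6v0a1 had 0.28 with the osteoblast score and -0.00354 with the macrophage score in it. Ctse, the most negative here, had 0.23 (SE 0.31) with the osteoblast score in the model.

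**Figure D5:**
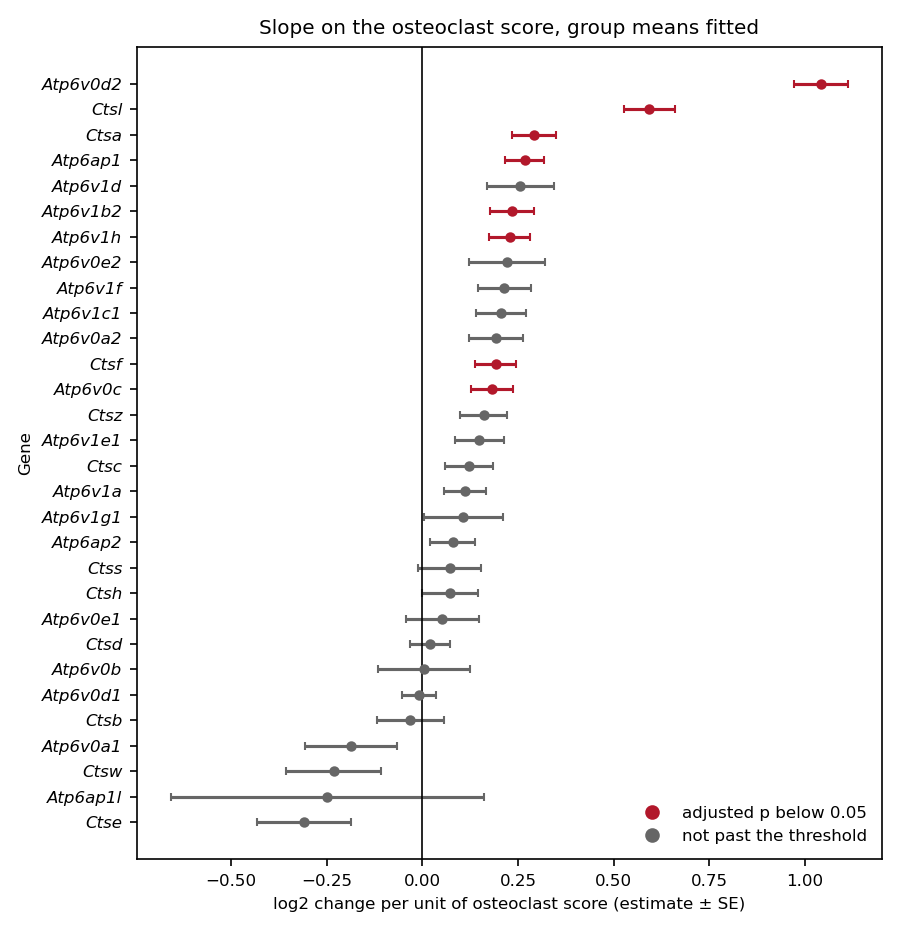
Slope on the osteoclast score with its SE for the 30 members at a mean of 1 FPKM or more, from edgeR with group means in the model, and red where the adjusted p is below 0.05. Atp6v0d2 (1.04) and Ctsl (0.59) stand above the other 6 that passed (0.18 to 0.29), and Atp6v0d1 lies at -0.01.

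The slope does not single out the osteoclast. Osteoclast and osteoblast scores correlated with r = 0.959 over the 15 libraries, and osteoclast and macrophage scores with r = 0.726. Of 9 osteoblast genes, 8 had positive slopes past the threshold with a median of 0.86, among them Col1a1, the main bone collagen, at 1.33. Neutrophil markers had a median slope of -0.53, with 4 of 10 past the threshold. With the osteoblast score in the same model 0 of 17657 genes passed. Atp6v0d2 then had 0.80 (SE 0.19, unadjusted p = 0.00139, adjusted p = 0.597) and Ctsl 0.56 (SE 0.20, unadjusted p = 0.0168, adjusted p = 0.902). Osteoclast and osteoblast markers therefore cannot be told apart as what these genes moved with. With the macrophage score in the same model Atp6v0d2 (1.11, adjusted p = 0.00117) and Ctsl (0.57, adjusted p = 0.00956) passed and the other 6 did not (3.47% of all genes tested passed). Without YJT3 and YJZYT3 the same pair passed, with 4.43% of all genes tested. Without Blank1, YJT1 or YJZYT3, left out one at a time, 5 members passed in each case, Atp6v0d2, Ctsl, Ctsa and Atp6ap1 among them. Of all genes tested, 11.1% passed without Blank1, 8.49% without YJT1 and 9.14% without YJZYT3.

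On the macrophage score itself, built from 8 genes such as Csf1r and C1qa, 0 members passed by edgeR, with 0.017% of all genes tested (0.0113% positive and 0.00567% negative), while 14 had an unadjusted p under 0.05 (38.9%, against 22.2% of genes tested). The smallest p belonged to Ctsa, with a slope of 0.54 (SE 0.13, adjusted p = 0.0754), then Atp6ap1 at 0.49 (adjusted p = 0.0773), Ctsl at 0.89 (adjusted p = 0.0891), Atp6v0d2 at 1.41 (adjusted p = 0.103) and Ctsc at 0.34 (adjusted p = 0.113). With the osteoclast score in the same model Atp6v0d2 had -0.19. DESeq2 called 7 members and limma 8. Without Model2 edgeR called 3, without YJT2 it called 4 and without YJT3 it called 5. The 0.017% belongs to the main fit, and no share of all genes is given for these other fits. Their counts are therefore not read as a result about the members.

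Genes that work with the pump and the cathepsins were set beside them on the osteoclast score. The share of all genes tested was 10.9% for positive and 2.76% for negative slopes past the threshold, and with the osteoblast score in the model 0 of all genes passed. Of 31 tested other lysosome genes, 13 passed with positive slopes and 0 with negative ones (median 0.18, against 0.17 for the 36 members and 0.00 for all genes tested). The lysosomal enzymes Arsb, at 0.78, Glb1, at 0.44, and Ppt1, at 0.37, had the smallest p. Of 11 genes of osteoclast acid secretion and resorption outside the score, 5 passed, all positive, with a median of 0.21. They include the RANK receptor Tnfrsf11a at 0.93 and the matrix protease Mmp9 at 0.48. Of 9 genes of pump assembly and regulation, 0 passed with positive slopes and 1 with a negative slope, Dmxl2 at -0.41 (adjusted p = 0.0379), which belongs to a complex that regulates the pump. Of 4 cathepsin inhibitors, the secreted cystatin Cst3 passed at 0.55 and Cst7, a cystatin of immune cells, at -0.41.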

How the data were processed

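The 37 genes, the lists and the tests were chosen with earlier results of these data known. Whole-number counts and FPKM values were deposited by the authors for each gene and library, per the file headers. Tools listed without roles in the submitters' processing notes are HISAT2 2.0.4, StringTie 1.3.4d, cutadapt 1.9, edgeR, DESeq2 and UMI-tools. The build, annotation, counting step, strand setting and any removal of duplicate molecules were not given in the sources used here. FPKM per count was constant across libraries within a gene after scaling (coefficient of variation 0.0161% over 8164 genes with 500 counts or more). Counts were tested with edgeR 4.0.16 (R 4.3.3; filterByExpr, TMM, robust quasi-likelihood, all 15 libraries, a mean per group, 10 residual degrees of freedom, 9 with a slope), two-sided, with Benjamini-Hochberg adjustment over 17657 genes; 4811 were filtered out. The biological coefficient of variation was 42.7%. Scores are medians of log2 CPM deviations (prior count 2). Ratios were tested by exact permutation in scipy 1.17.1. Alternatives used DESeq2 1.42.0, limma 3.58.1 on log2(FPKM + 1) and log2(FPKM + 0.1), other scalings, filters and left-out libraries. The scripts were tested on simulated data. Named genes are 18 preset members, the 3 with the smallest p in each direction of a contrast, the 5 with the smallest p of other tests and every member past a threshold; Atp6v0b, Atp6v0e1, Atp6v1g1 and Atp6ap1l were named after their values were seen. Among listed genes not analysed here for want of a matching symbol are Sgsh, Tldc1, Csta, Marco and Col1a2.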

Additional observations from a re-analysis of the deposited data

How the results depend on the processing

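In the 4 contrasts and the test of any difference, the count of members past the threshold was 0 under each alternative run, the replicate block included, although DESeq2 called 289 of all genes for Model against Blank, 27 for SYT, 96 for YJT and 63 for YJZYT. For the osteoclast slope 8 members passed, with 13.7% of all genes tested. DESeq2 gave 13 (19.5% of all genes), no group means 17 (17.1%) and the fit without YJT3 and YJZYT3 2 (4.43%). Both scores together gave 2 (3.47%) and the osteoblast score in the same model 0 (0.0%). Leaving out 1 library gave 5 to 11 members (8.49% to 14.9% of all genes). The fit with the osteoblast score and the scaling by library totals were chosen after seeing the data. Atp6v0d2 and Ctsl passed in 28 of 29 settings each. These include fits with the osteoblast score, or with Ctsk alone, in place of the osteoclast score. On the osteoblast score in its place Atp6v0d2 had 1.07 and Ctsl 0.59, and 9 members passed (15.3% of all genes). For the macrophage slope 0 passed. DESeq2 gave 7, limma 8 with a pseudocount of 1 and 9 with 0.1, no group means 7 and library totals alone 2. Leaving out 1 library gave 0 to 5. No share of all genes is given for these macrophage fits, so the counts are not read as a result about the members. The d isoform ratio, leaving out 1 library, ran from -0.59 to 0.27 for SYT against Model, from -2.57 to -1.09 for YJT, from -1.22 to 0.0438 for YJZYT and from 0.03 to 0.91 for Model against Blank. Signs also turned for Ctsd in SYT against Model (-0.0588 and -0.0593 by limma with the larger and smaller pseudocount, -0.0404 with library totals alone), for Atp6v1g3 there (-0.96 to 0.0757 when 1 library was left out, the last without Model2), for the Atp6ap1l osteoclast slope beside the macrophage score (1.44), for that of Atp6v0a1 beside the osteoblast score (0.28), for the Ctsf osteoclast slope beside the osteoblast score (-0.00497) and for the Atp6v0d2 macrophage slope beside the osteoclast score (-0.19). Beside the osteoblast score the osteoclast slopes of Ctse (0.23) and Ctsb (0.07) also turned positive. Those of Ctss (-0.12) and Ctsh (-0.30) turned negative there. The causes of these changes were not tested. Same-numbered libraries of different groups had a median correlation of deviations of -0.02 over 30 pairs (-0.42 to 0.40), so the numbers were not taken to pair samples; with the replicate block 8 members passed the osteoclast slope and 0 the macrophage slope. A tally of results for single genes and settings did not hold every sign change listed above. In it, 644 kept direction and side of the threshold, 48 lost the threshold, 32 gained it and 6 changed sign. Values of Atp6v1b1, Atp6v1fnb, Atp6v1g2 and Atp6v1e2 rest on counts near 0 in several libraries.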
